A study of Mus musculus with 6 samples.

Results

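The 37 genes described here mark the cells of brain vessels, 27 of them endothelial cells and 10 of them mural cells, the pericytes and smooth muscle cells wrapped around the endothelium. They are listed by symbol for their known roles in vessels, and all 37 were found among the 52550 genes listed in each library. The tissue was mouse cortex (strain C57BL6/J) from pups aged 2 days after birth, and each library held the polyadenylated RNA of 1 hemisphere. The 3 knockout mice were Slc7a5fl/fl and positive for Emx1-Cre, and the 3 control mice were Slc7a5fl/fl and negative for Cre, so both genotypes carried the floxed alleles. The titles give each genotype the letters A, B and C. Slc7a5 makes LAT1, a carrier of large neutral amino acids across cell membranes.

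Brain endothelial cells are joined by tight junctions and carry nutrient transporters and efflux pumps, which together make the blood-brain barrier. Their growth and survival are driven by VEGF and angiopoietin signals from neighbouring cells, and barrier properties are induced by Wnt ligands of neural cells. Pericytes are recruited by PDGF-B from the endothelium and sit within a shared basement membrane. Emx1-driven Cre acts in the progenitors of the dorsal forebrain, which give rise to excitatory neurons and much of the glia. Endothelial and mural cells arise elsewhere. The libraries are of whole hemispheres, and neural or glial cells can express some of these genes too. LAT1 is itself abundant in brain endothelium, and Slc7a5 reads of a whole hemisphere include those cells in both genotypes.

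Gene counts ranged from 8249436 to 10372582 per library. Levels are given as CPM, counts scaled to a common library size, and changes as log2 of knockout over control from edgeR's quasi-likelihood test, with p-values adjusted by Benjamini-Hochberg over the 14913 genes tested. Slc7a5 had 15.6, 9.37 and 11.4 CPM in knockouts A, B and C, against 20.2, 40.7 and 26.1 CPM in controls A, B and C, so the groups did not overlap. Its log2 change of -1.25 ± 0.28 (SE) had an adjusted p of 0.400, and of 0.421 with the letter as a replicate block. With DESeq2 the adjusted p was 3.42e-04, and 0.670 with DESeq2 and the block. Genes of fibroblasts and meninges summed to 56.9, 256 and 246 CPM in knockouts A, B and C and to 55.9, 250 and 152 CPM in controls A, B and C. Both libraries of letter A were thus low in these genes, whatever the genotype. Border macrophage genes were also low in both A libraries, with 2.57 and 1.41 CPM in knockout A and control A and 15.8 to 30.8 CPM elsewhere. Choroid plexus genes reached 161 CPM in control B, of which Ttr gave 144, and 9.16 to 44.1 CPM in the other libraries. Xist, the transcript of the inactive X chromosome, had 961 and 918 CPM in knockout B and control B and at most 2.95 CPM in the others.

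No endothelial or mural gene passed the adjusted threshold of 0.05. Of the 37 genes 35 had enough reads to be tested, and 0 were called, where 0.0335% of all tested genes were (5 of 14913). With the letter as a replicate block 0 members were called as well, where 0.845% of all tested genes were (126). DESeq2 called 27 of the 14913 genes and 0 members. It gave no adjusted p to the members Tie1, Tek, Emcn, Ly6c1, Ly6a, Slco1a4 and Vwf. Nor did it give one to Erg, Sox17, Sox18, Foxf2, Higd1b and Acta2, and none of all these members could be called by it. At an unadjusted p under 0.05 there were 3 members, Tie1, Erg and Cald1, among 1044 genes in all. The lowest adjusted p of a member was 0.628, for Cald1, and 0.161 in the fit with the block, for Tie1. In bulk tissue fewer cells of a type and less RNA per cell cannot be told apart, and this holds for every level below.

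The endothelial genes leaned slightly to the higher side in the knockout, and none passed the test. Of 27 tested members 19 had a higher and 8 a lower fitted value in the knockout, and the median log2 change was 0.15. Over all genes tested 50.2% were higher, with a median of 0.0011 and a median size of 0.13. The median of the differences between libraries of the same letter was 0.19 for A, -0.044 for B and 0.19 for C. Summed over the 27 genes, knockouts A, B and C had 394, 425 and 401 CPM and controls A, B and C had 333, 426 and 373 CPM. Control B stood as high as the highest knockout, and the groups overlapped. Without control A the median was 0.031 and 17 of the 27 genes were higher, and without control B the median was 0.27 with 22 higher.

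The mural genes had higher fitted values in the knockout in 8 of the 8 members tested, at a median log2 change of 0.30 and individual changes between 0.14 and 0.48, none of which passed. The same-letter medians were 0.40 for A, 0.065 for B and 0.19 for C. The 10 genes summed to 196, 183 and 181 CPM in knockouts A, B and C, against 154, 163 and 151 CPM in controls A, B and C. Every knockout sum lay above every control sum. Rgs5 gave 50.5% of this sum over all libraries and Cald1 22.5%, so these 2 genes set most of it. The mean of log2 CPM, which weights the 10 genes equally, was 2.85, 2.85 and 2.87 in the knockouts and 2.49, 2.84 and 2.55 in the controls, with control B just under the knockouts. Of the 8 mural genes tested, 7 were higher without control A, without knockout B, without both A libraries or without both B libraries. In each of the other fits 8 of these 8 were higher. The fit without a filter on low counts also held Tagln, at 0.85 ± 0.75, and Myh11, on the lower side at -0.50 ± 0.95. Microglial genes, which belong to no vessel, also had 11 of 12 members on the higher side, with sums of 215, 169 and 188 CPM in knockouts A, B and C against 146, 159 and 175 CPM in controls A, B and C. Interneuron genes were higher in 9 of 10 members (median 0.24), and fibroblast and meningeal genes in 10 of 11 tested (median 0.44). Projection neuron genes were lower in 7 of 10 members (median -0.11), astrocyte genes in 7 of 10 and oligodendrocyte lineage genes in 7 of 8. The higher side was thus not particular to mural genes. Reads outside exons, counted on the strand used, made up 27.4, 27.9 and 27.8% of the mapped reads in knockouts A, B and C, against 26.5, 22.5 and 23.0% in controls A, B and C, so this measure of the libraries also lay higher in every knockout. Whether the mural, microglial, interneuron and meningeal values have a common source, and the part of the reads outside exons in them, was not tested.

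Groups that do not overlap were counted apart from the test. All 3 knockouts lay above all 3 controls for 5 of the 35 tested members (14.3%), Erg, Rgs5, Abcc9, Notch3 and Cald1, where this held for 5.89% of all tested genes. Among endothelial genes this was 1 of 27 (3.70%), under the share of all genes, and among mural genes it was 4 of 8. All 3 knockouts lay below all 3 controls for 0 members, where this held for 6.28% of all tested genes.

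**Figure D1:**
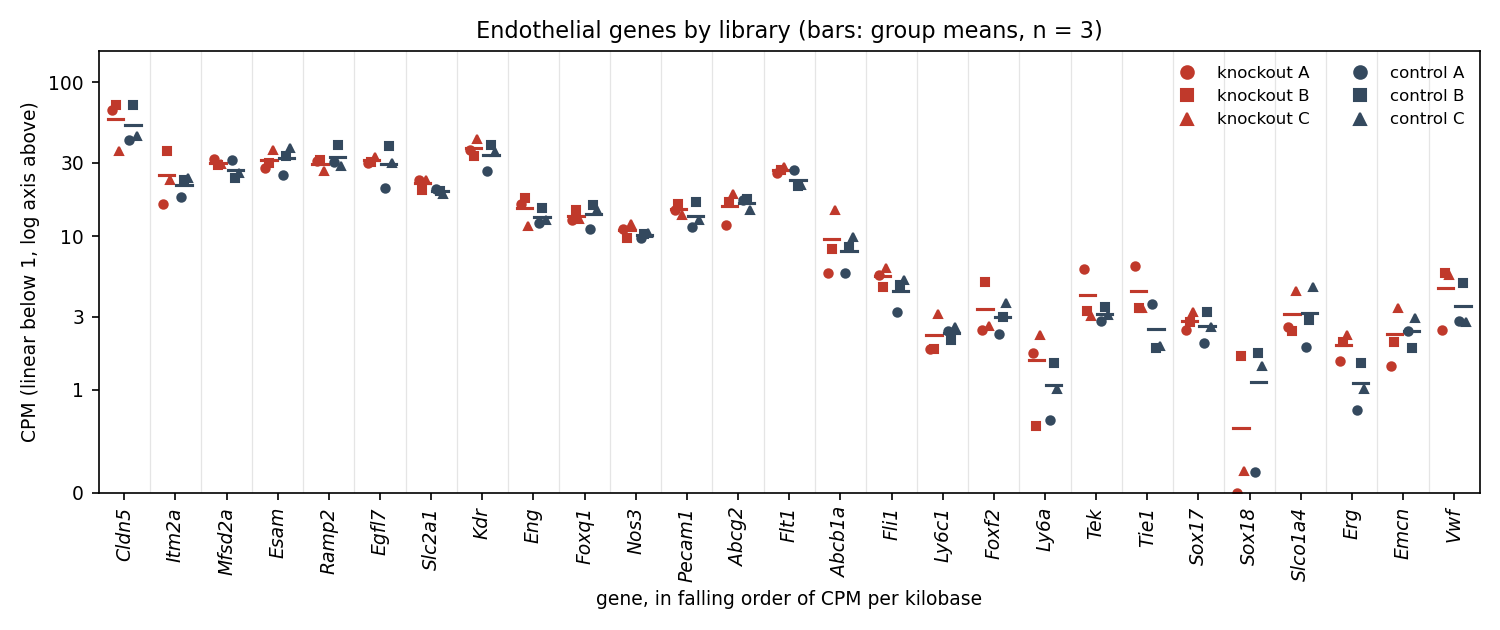
CPM of the 27 endothelial genes in each library, with knockouts left of controls, symbols for the letters A, B and C, and bars for group means (n = 3); the vertical axis is linear below 1 CPM and logarithmic above. The groups overlap for every gene but Erg, and Cldn5 spans 35.7 to 71.2 CPM within the knockouts.

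Receptors of the endothelium receive the growth signals, and 5 of 6 had higher fitted values in the knockout (median log2 change 0.20). Tie1, the orphan partner of the angiopoietin receptor (ENSMUSG00000033191, GRCm38 chromosome 4 from 118471191 to 118490061, minus strand), had 6.38, 3.43 and 3.43 CPM in knockouts A, B and C, against 3.62, 1.86 and 1.94 CPM in controls A, B and C. Each knockout was above the control of its letter, by 0.74, 0.74 and 0.69 on the log2 scale with 0.5 CPM added, but control A lay above knockouts B and C. The fitted log2 change was 0.82 ± 0.34 (SE, 95% interval 0.10 to 1.53), with an adjusted p of 0.666 and of 0.161 with the block. It rested on 15 to 62 reads per library, and without knockout A it was 0.46. Tek, the angiopoietin receptor Tie2, had 6.07, 3.25 and 3.01 CPM in the knockouts and 2.82, 3.47 and 3.06 CPM in the controls, with only knockout A apart. Its log2 change of 0.40 ± 0.30 was 0.012 without knockout A, and -0.050 without both A libraries.

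Of the VEGF receptors, Flt1, which binds VEGF-A tightly and signals weakly, had 25.8, 26.8 and 27.9 CPM in knockouts A, B and C, against 26.7, 21.1 and 21.5 CPM in controls A, B and C. Control A lay within the knockouts (log2 change 0.22 ± 0.13, adjusted p = 0.796). Kdr, the main signalling receptor VEGFR2, had 36.0, 32.9 and 42.8 CPM in the knockouts and 26.4, 39.1 and 35.2 CPM in the controls. Its groups overlapped, and its log2 change of 0.15 ± 0.15 was 0.0029 without control A and 0.28 without control B. Eng, the TGF-beta co-receptor endoglin, had 16.1, 17.7 and 11.6 CPM in the knockouts and 12.2, 15.3 and 12.6 CPM in the controls, with a log2 change of 0.19 ± 0.18 that was 0.058 without knockout B and 0.34 without knockout C. The gene Fpgs lies across it on the other strand, which held 46.7% of the reads over both strands, and its values rest on the strand-specific counts. Ramp2, the partner of the adrenomedullin receptor, was the receptor gene on the lower side, with 30.7, 31.1 and 26.3 CPM in the knockouts and 30.2, 39.2 and 28.3 CPM in the controls. The difference came with the high value of control B (log2 change -0.15 ± 0.14, and 0.0064 without control B). Ramp2 overlaps Vps25 on the same strand, where shared reads are not counted for either gene.

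Genes of the junctions and the cell surface were split, with 4 of 7 higher and a median of 0.14. Cldn5, the main tight junction claudin (ENSMUSG00000041378, chromosome 16 from 18776847 to 18778262, plus strand), had 66.0, 71.2 and 35.7 CPM in knockouts A, B and C, against 41.9, 71.0 and 44.6 CPM in controls A, B and C. Its range within the knockouts was wider than the difference of the group means, 57.6 ± 19.2 and 52.5 ± 16.1 CPM (SD, n = 3). The log2 change was 0.14 ± 0.35, with a 95% interval of -0.75 to 1.03, so a difference was not detectable at this spread. Pecam1, the adhesion molecule CD31, had 14.8, 16.1 and 13.7 CPM in the knockouts and 11.5, 16.6 and 12.6 CPM in the controls, and its log2 change was 0.14 ± 0.17. Esam, another junctional adhesion molecule, had 27.7, 29.7 and 36.4 CPM in the knockouts and 25.0, 33.2 and 37.6 CPM in the controls. The letters moved together in it, A low and C high in both genotypes, and its log2 change was -0.03 ± 0.16.

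Itm2a, a membrane protein enriched in brain endothelium, had 16.3, 35.5 and 23.1 CPM in knockouts A, B and C, against 17.8, 23.1 and 23.7 CPM in controls A, B and C. Knockout B alone was high, and the log2 change of 0.22 ± 0.27 was -0.13 without it. The sialomucin gene Emcn and the Ly6 genes Ly6c1 and Ly6a were rare, between 0.649 and 3.43 CPM in every library, with log2 changes of -0.08 ± 0.35, -0.06 ± 0.32 and 0.55 ± 0.48. Reads that Ly6c1 and Ly6a share with their near-identical neighbours are not counted for either, so these levels are too low by an unknown share.

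Barrier transporters were likewise split, with 3 of 5 higher and a median of 0.15. Slc2a1, the glucose carrier GLUT1, which astrocytes express too, had 23.2, 20.0 and 23.1 CPM in knockouts A, B and C, against 20.2, 19.7 and 18.8 CPM in controls A, B and C. Only knockout B reached into the control range, and the log2 change was 0.17 ± 0.13 with an interval of -0.11 to 0.45. Mfsd2a, which carries lysophospholipids of docosahexaenoic acid and limits vesicle traffic across the barrier, had 31.5, 29.1 and 29.3 CPM in the knockouts and 31.3, 23.9 and 25.6 CPM in the controls. Control A matched the knockouts, and the log2 change was 0.15 ± 0.13. These 2 genes varied least among the barrier transporters, with the highest library 1.23 and 1.32 times the lowest.

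The efflux pumps varied more. Abcb1a, which encodes P-glycoprotein, had 5.76, 8.25 and 14.8 CPM in knockouts A, B and C, against 5.74, 8.43 and 9.88 CPM in controls A, B and C, with knockout C alone apart and a log2 change of 0.26 ± 0.33. Abcg2, the breast cancer resistance protein, had 11.8, 16.6 and 18.8 CPM in the knockouts and 17.2, 17.4 and 14.9 CPM in the controls (-0.06 ± 0.17). The organic anion carrier Slco1a4 had 2.57, 2.41 and 4.36 CPM in the knockouts and 1.91, 2.85 and 4.69 CPM in the controls, with both C libraries high and a log2 change of -0.02 ± 0.35. Its sign turned in several other fits, between -0.34 and 0.39.

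Secreted proteins and enzymes of the endothelium were higher in 3 of 3 members, with a median of 0.11. Egfl7, a secreted matrix protein, had 29.9, 30.1 and 32.8 CPM in knockouts A, B and C, against 20.4, 38.6 and 29.7 CPM in controls A, B and C. The controls enclosed the knockouts, and the log2 change was 0.07 ± 0.18. Egfl7 overlaps Gm20532 on the same strand, where shared reads are not counted for either gene. Nos3, the endothelial nitric oxide synthase, had 11.1, 9.65 and 12.1 CPM in the knockouts and 9.76, 10.3 and 10.4 CPM in the controls (0.11 ± 0.17). Vwf, the clotting factor that larger vessels store, had 2.47, 5.75 and 5.61 CPM in the knockouts and 2.82, 4.96 and 2.75 CPM in the controls. Knockout A and 2 controls were alike, and the log2 change was 0.41 ± 0.34.

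Endothelial transcription factors were higher in 4 of 6 members, with a median of 0.16. Erg, an ETS family factor that maintains endothelial identity (ENSMUSG00000040732, chromosome 16 from 95359169 to 95586593, minus strand), had 1.54, 2.04 and 2.29 CPM in knockouts A, B and C, against 0.805, 1.49 and 1.02 CPM in controls A, B and C. The groups did not overlap, but knockout A and control B differed by little. The levels rested on 15, 22 and 22 reads in the knockouts and 8, 12 and 10 reads in the controls. The log2 change was 0.84 ± 0.38 (95% interval 0.03 to 1.65, adjusted p = 0.708, and 0.406 with the block). Fli1, another ETS factor that microglia express too, had 5.56, 4.64 and 6.23 CPM in the knockouts and 3.22, 4.84 and 5.19 CPM in the controls (0.31 ± 0.25).

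The SOX and forkhead factors had overlapping groups, and Sox18 was too rare to read. Sox17 had 2.47, 2.78 and 3.22 CPM in knockouts A, B and C, against 2.01, 3.23 and 2.55 CPM in controls A, B and C, with a log2 change of 0.13 ± 0.30. Sox18 had 0, 18 and 2 reads in the knockouts and 2, 14 and 14 reads in the controls, and 3 reads, the limit that a count of 0 allows, would be 0.309 CPM in knockout A, by counting error only. Its spread left a log2 change of -0.73 ± 1.10 with an interval of -3.34 to 1.88. Foxq1 had 12.7, 14.8 and 13 CPM in the knockouts and 11.1, 15.9 and 14.7 CPM in the controls (-0.03 ± 0.17). Foxf2, which pericytes express too, had 2.47, 5.01 and 2.60 CPM in the knockouts and 2.31, 2.98 and 3.67 CPM in the controls, with knockout B alone apart (0.18 ± 0.33).

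Compared per kilobase of exon, the endothelial genes covered a wide range of levels. Cldn5 was the highest at 38.9 CPM per kilobase over all libraries, followed by Itm2a at 13.3, Mfsd2a at 12.6, Esam at 11.0, Ramp2 at 9.38 and Egfl7 at 8.46. Vwf was the lowest at 0.253 CPM per kilobase, below Emcn at 0.436, Erg at 0.442 and Slco1a4 at 0.488. From Itm2a to Egfl7, and from Vwf to Slco1a4, the libraries of neighbouring genes overlapped on this scale, so the order within each of these runs is not fixed. Among mural genes Rgs5 led with 19.0 CPM per kilobase, ahead of Vtn at 5.35, Higd1b at 3.80 and Cald1 at 3.19, and Myh11 was the lowest at 0.0389. The libraries of Vtn, Higd1b and Cald1 overlapped one another, and those of Rgs5 lay above all 3.

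**Figure D2:**
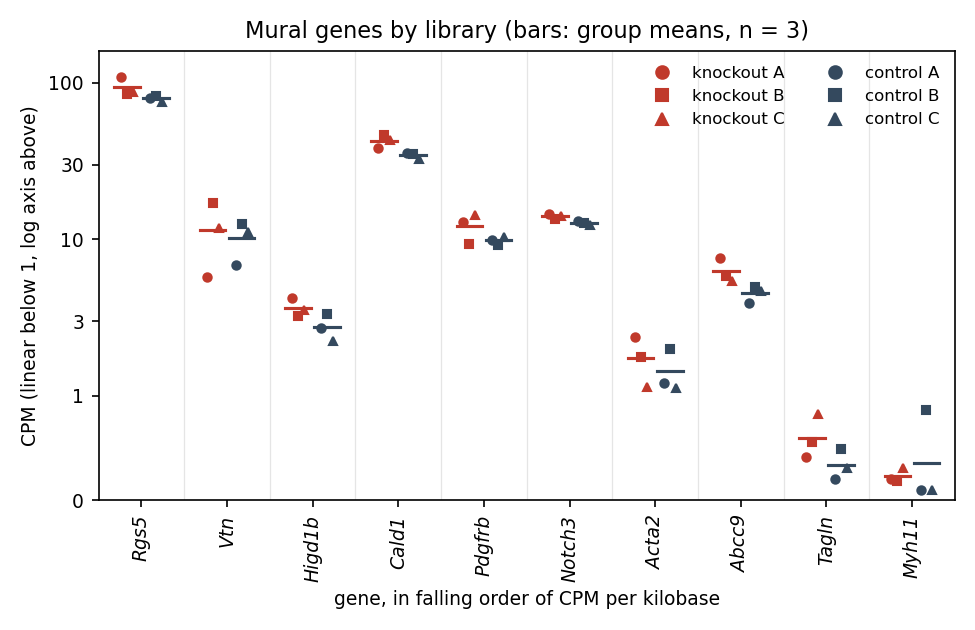
CPM of the 10 mural genes in each library, with knockouts left of controls, symbols for the letters and bars for group means (n = 3); the vertical axis is linear below 1 CPM and logarithmic above. All 3 knockouts lie above all 3 controls for Rgs5, Cald1, Notch3 and Abcc9, and Tagln and Myh11 stay under 1 CPM in every library.

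Pericyte-enriched genes were on the higher side in 6 of 6 members, with a median log2 change of 0.27. Rgs5, a regulator of G protein signalling and the most abundant pericyte gene here (ENSMUSG00000026678, chromosome 1 from 169655501 to 169695813, plus strand), had 109, 84.6 and 86.8 CPM in knockouts A, B and C, against 80.4, 82.0 and 75.7 CPM in controls A, B and C. The groups did not overlap, yet knockout B and control B differed by only 0.04 on the log2 scale. The fitted change was 0.24 ± 0.11 (95% interval -0.0030 to 0.48, adjusted p = 0.718, and 0.324 with the block), and it was 0.11 without knockout A. Abcc9, the sulfonylurea receptor subunit of the pericyte potassium channel (ENSMUSG00000030249, chromosome 6 from 142587862 to 142702315, minus strand), had 7.62, 5.84 and 5.40 CPM in the knockouts and 3.93, 4.96 and 4.69 CPM in the controls. Knockout A was the highest by far and control A the lowest, and the log2 change was 0.48 ± 0.24 (adjusted p = 0.728), and 0.32 without knockout A.

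Notch3, the Notch receptor of mural cells (ENSMUSG00000038146, chromosome 17 from 32120820 to 32166852, minus strand), was the steadiest gene, with 14.6, 13.4 and 14.1 CPM in knockouts A, B and C, against 13.2, 12.7 and 12.3 CPM in controls A, B and C. The highest library was 1.19 times the lowest, the groups did not overlap, and the log2 change was 0.14 ± 0.15 (adjusted p = 0.897). Pdgfrb, the receptor through which pericytes are recruited, had 12.9, 9.27 and 14.2 CPM in the knockouts and 9.96, 9.18 and 10.4 CPM in the controls. Knockout B lay within the controls, and the log2 change of 0.29 ± 0.19 was 0.16 without knockout C and 0.46 without knockout B. Higd1b, a mitochondrial protein gene used as a pericyte marker, had 4.22, 3.25 and 3.53 CPM in the knockouts and 2.72, 3.35 and 2.24 CPM in the controls (0.41 ± 0.28). Vtn, the matrix protein vitronectin, had 5.76, 17.0 and 11.8 CPM in the knockouts and 6.84, 12.5 and 11.2 CPM in the controls, with both A libraries low and a log2 change of 0.19 ± 0.40.

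Contractile genes of smooth muscle were barely present, apart from Cald1. Cald1, the actin-binding caldesmon, which other cells of the tissue can express (ENSMUSG00000029761, chromosome 6 from 34598500 to 34775473, plus strand), had 38.1, 46.7 and 43.0 CPM in knockouts A, B and C, against 35.4, 35.0 and 32.6 CPM in controls A, B and C. The groups did not overlap, and the log2 change was 0.31 ± 0.12 (95% interval 0.06 to 0.56, adjusted p = 0.628, and 0.216 with the block). Acta2, smooth muscle actin, had 2.37, 1.76 and 1.14 CPM in the knockouts and 1.21, 1.98 and 1.12 CPM in the controls, on 11 to 23 reads per library (0.31 ± 0.40). Tagln had 4, 6 and 8 reads in the knockouts and 2, 4 and 3 reads in the controls, and Myh11 had 2, 2 and 3 reads in the knockouts and 1, 7 and 1 reads in the controls. Both were too rare to be tested. Pcsk7 lies across Tagln on the other strand, which held 94.2% of the reads over both. Apart from Cald1, which gave 22.5% of the mural sum, the label of a mural list is thus carried by pericyte genes here. The smooth muscle genes Acta2, Tagln and Myh11 had at most 2.37 CPM in any library.

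The promoters of the 5 genes whose groups did not overlap are shown so that their sequence can be read beside these values. Each runs from 250 bases before to 50 after the start site in RefSeq (GRCm38.p6), 5′ to 3′ on the gene's strand, and the capitals mark the ETS core GGAA or its reverse complement TTCC. The windows are chr16:95586544-95586843 for Erg on the minus strand, chr1:169655251-169655550 for Rgs5 on the plus strand, chr6:142702225-142702524 for Abcc9 on the minus strand, chr17:32166841-32167140 for Notch3 on the minus strand and chr6:34598254-34598553 for Cald1 on the plus strand. Of the 37 members 23 have an entry in the table of promoters. The start site used for Abcb1a lies 92986 bases from the GENCODE start of the gene, and that of Egfl7 1069 bases.
Erg: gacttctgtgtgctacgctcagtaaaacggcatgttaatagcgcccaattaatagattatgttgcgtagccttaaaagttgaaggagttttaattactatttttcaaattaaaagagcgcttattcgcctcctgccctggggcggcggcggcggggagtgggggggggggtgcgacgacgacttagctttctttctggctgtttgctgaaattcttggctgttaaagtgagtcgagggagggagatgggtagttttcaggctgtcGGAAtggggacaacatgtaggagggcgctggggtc
Rgs5: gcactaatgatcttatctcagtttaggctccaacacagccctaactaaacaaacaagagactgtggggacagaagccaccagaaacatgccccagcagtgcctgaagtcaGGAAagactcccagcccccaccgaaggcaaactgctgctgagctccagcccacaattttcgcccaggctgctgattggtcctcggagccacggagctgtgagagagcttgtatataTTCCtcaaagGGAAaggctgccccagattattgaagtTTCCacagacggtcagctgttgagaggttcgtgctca
Abcc9: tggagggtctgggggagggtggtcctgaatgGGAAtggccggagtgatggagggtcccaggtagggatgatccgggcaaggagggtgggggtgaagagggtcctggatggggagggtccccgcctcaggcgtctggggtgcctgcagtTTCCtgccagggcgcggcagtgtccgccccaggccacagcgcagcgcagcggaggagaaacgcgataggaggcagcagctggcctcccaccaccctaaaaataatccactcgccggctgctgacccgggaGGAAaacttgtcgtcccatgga
Notch3: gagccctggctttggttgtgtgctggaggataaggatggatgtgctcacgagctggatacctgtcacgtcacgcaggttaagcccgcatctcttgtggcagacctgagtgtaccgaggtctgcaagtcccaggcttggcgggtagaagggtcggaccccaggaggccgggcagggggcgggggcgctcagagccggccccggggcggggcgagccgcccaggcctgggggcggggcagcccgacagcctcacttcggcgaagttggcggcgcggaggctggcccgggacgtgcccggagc
Cald1: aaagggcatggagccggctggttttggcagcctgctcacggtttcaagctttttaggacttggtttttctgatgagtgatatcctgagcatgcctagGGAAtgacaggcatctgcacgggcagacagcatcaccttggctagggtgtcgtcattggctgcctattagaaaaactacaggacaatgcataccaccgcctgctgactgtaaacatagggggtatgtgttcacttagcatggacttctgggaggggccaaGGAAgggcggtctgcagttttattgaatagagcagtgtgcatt
The core was present in 20 of the 23 promoters of members (87.0%), where it is present in 96.0% of all 32851 promoters of the same length, so a match carries little information. Erg held 1 core, Rgs5 4, Abcc9 3, Notch3 0 and Cald1 2. The longer ETS form CCGGAA, on either strand and containing the core, was present in 1 of the 23, Kdr, against 14.9% of all promoters. The RBPJ site TGGGAA, the sequence bound by the partner of Notch, also contains the core, and was present in 6 of the 23 (26.1%) against 25.6% of all. These 6 were 3 of 17 endothelial and 3 of 6 mural promoters. The CArG box of serum response factor was found in 0 of the 23, against 1.63% of all. These are matches of letters in short windows, not sites of binding.

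**Figure D3:**
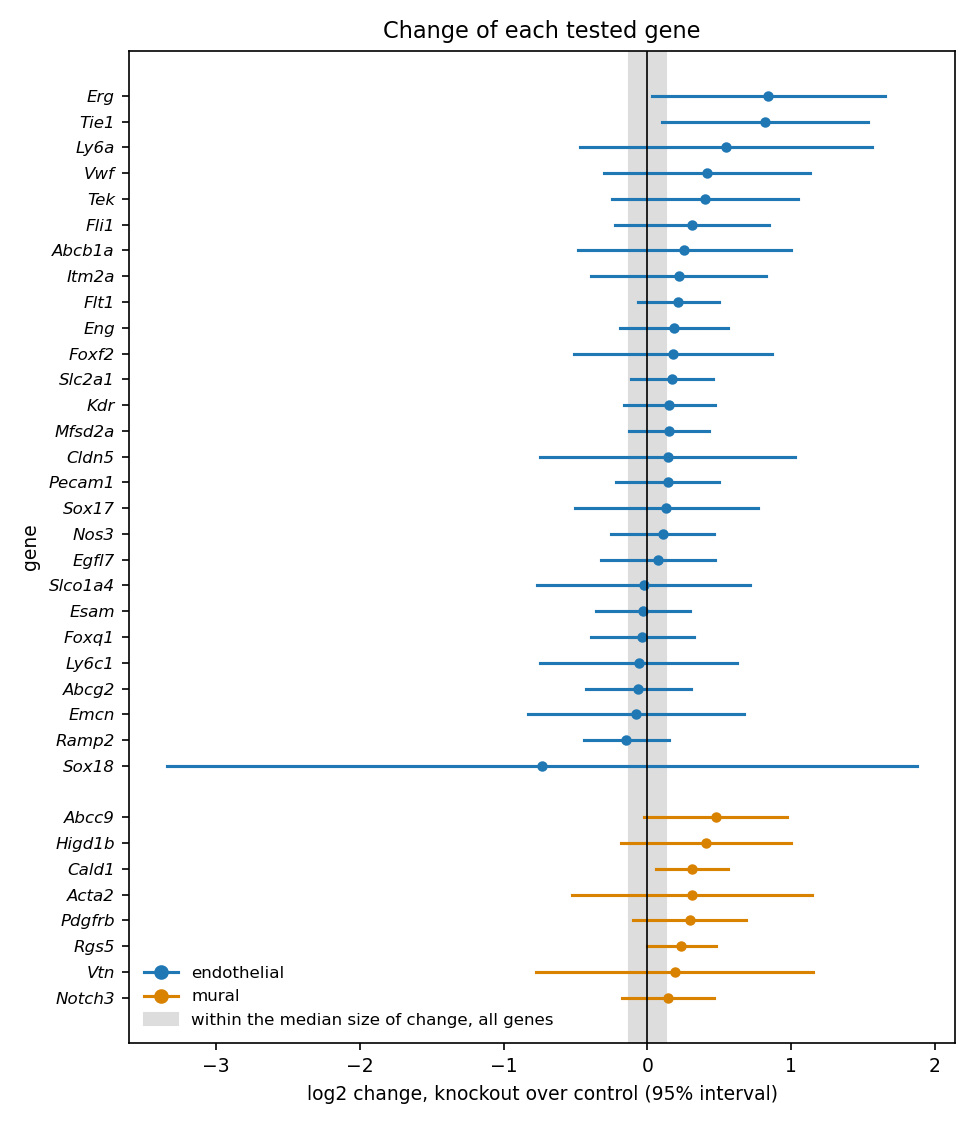
Log2 change of knockout over control for the 35 tested genes, with points for the fitted value and lines for its 95% interval, endothelial genes above mural genes; the grey band spans the median size of change over all genes, 0.13 on either side of 0. Intervals of Tie1, Erg and Cald1 lie above 0 before adjustment, and every mural point lies right of 0.

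Beyond genotype, several members followed the letter. Both A libraries lay below the other 4 for 7 of 27 endothelial genes (25.9%), Sox17, Sox18, Abcb1a, Esam, Foxq1, Foxf2 and Itm2a, and for Vtn among the 8 mural genes. This held for 8.36% of all tested genes. Sox18 had 2 reads in control A and 2 in knockout C, so its place among these rests on the scaling of libraries. Both B libraries lay above the other 4 for 5 endothelial genes (18.5%), Sox18, Ramp2, Pecam1, Foxq1 and Cldn5, where it held for 9.12% of all genes. Both C libraries were the highest for another 5, Emcn, Abcb1a, Slco1a4, Esam and Ly6c1, against 7.22% of all genes. Tie1 and Mfsd2a went the other way, with both A libraries above the rest (2 of 27, 7.41%, against 8.41% of all genes). The low A libraries are those low in fibroblast and border macrophage genes, and the part of those cells in these members' values was not tested.

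**Figure D4:**
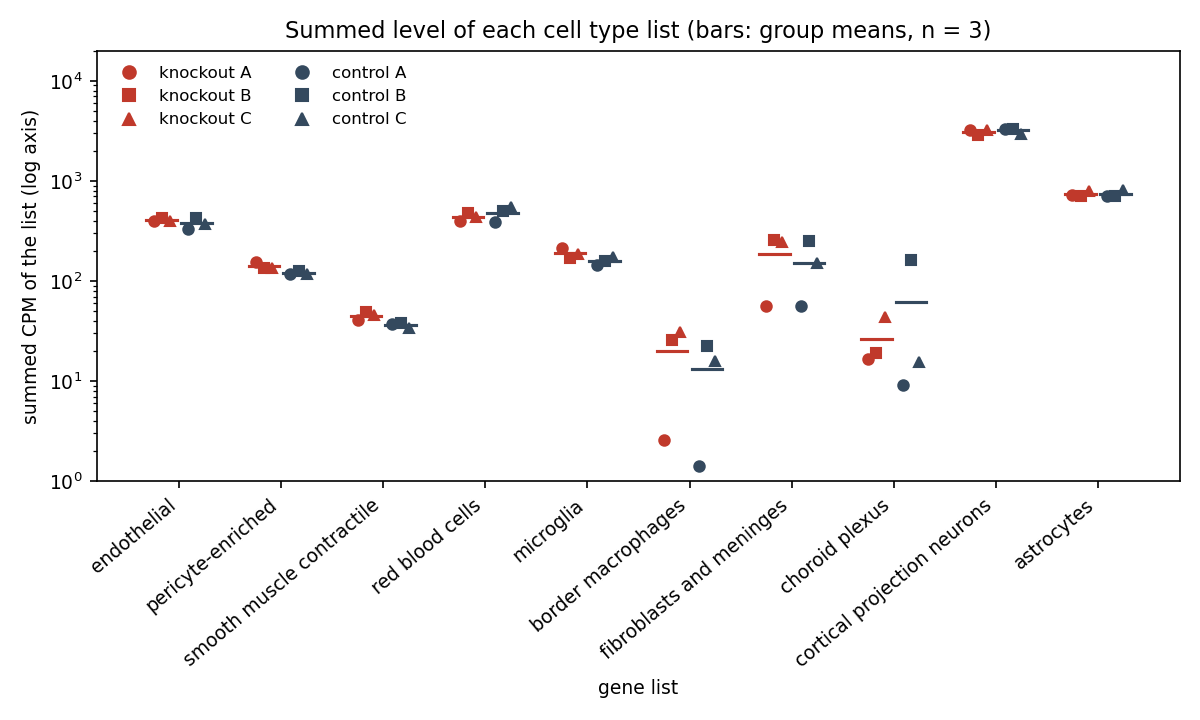
Summed CPM of the endothelial, pericyte-enriched and smooth muscle members and of marker lists of other cells, on a logarithmic axis, with knockouts left of controls, symbols for the letters and bars for group means (n = 3). Fibroblast and border macrophage genes are low in knockout A and control A, and the pericyte-enriched sums are 133 to 154 CPM in knockouts and 117 to 125 CPM in controls.

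Genes of red cells, which vessels hold, had sums that overlapped between the genotypes. They came to 399, 480 and 438 CPM in knockouts A, B and C, against 388, 502 and 547 CPM in controls A, B and C, mostly from Hbb-bs, a beta globin gene. The 5 tested red cell genes had a median log2 change of -0.093, and 0 were called. The platelet list had 3 tested genes, 2 of them lower, with a median of -0.11.

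Other endothelial genes gave a similar picture, with 12 of 18 tested members higher, a median of 0.19, and 0 called in the fit without the block. Plvap, the diaphragm protein of permeable capillaries that brain vessels lose as the barrier matures (ENSMUSG00000034845, chromosome 8 from 71497765 to 71511752, minus strand), had 9.98, 9.83 and 4.57 CPM in knockouts A, B and C, against 13.7, 14.1 and 12 CPM in controls A, B and C. All knockouts were below all controls, with knockout C the lowest. Its log2 change was -0.70 ± 0.24 with an adjusted p of 0.541, and -0.75 with an adjusted p of 0.0361 in the fit with the block, where 0.516% of all tested genes were called lower. With DESeq2 and the block its adjusted p was 0.441, and without knockout C its log2 change was -0.42. In every other alternative run, the adjusted p was 0.0790 or more. Choroid plexus and meningeal vessels keep Plvap, and the reads of this gene were not assigned to a vessel type. Other mural genes were lower in 6 of 10 tested members (median -0.04), with -0.57 ± 0.33 for the endothelin receptor Ednra and 0.55 ± 0.43 for the purinergic receptor P2ry14.

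The signals that reach these vessels were read from the same libraries, and 0 genes of the lists below were called with or without the block. Among 18 VEGF and angiopoietin genes 11 were higher (median 0.08). Vegfa, the main growth factor of endothelium (ENSMUSG00000023951, chromosome 17 from 46016993 to 46032369, minus strand), had 48.8, 48.4 and 49.7 CPM in knockouts A, B and C, against 39.7, 33.7 and 38.4 CPM in controls A, B and C. The knockouts lay close together above all controls, and the log2 change was 0.39 ± 0.11 (adjusted p = 0.440, and 0.0652 with the block). Vegfd, a ligand of lymphatic vessels, had 1.34, 1.02 and 1.14 CPM in the knockouts and 2.62, 2.11 and 2.14 CPM in the controls (-0.97 ± 0.35, adjusted p = 0.553). The groups of both ligands did not overlap. In the hypoxia response, which includes Vegfa, 6 of 13 tested genes were higher (median -0.0012), and P4ha1, a collagen prolyl hydroxylase, had a log2 change of -0.41 ± 0.15.

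Genes of canonical Wnt signalling, a list of ligands, receptors, mediators and targets together, were lower in 13 of 16 tested members, by little (median -0.09). Their reads were not assigned to a cell type, so this count is no measure of barrier induction. Wnt7b, a ligand that neural cells send to the endothelium (ENSMUSG00000022382, chromosome 15 from 85535437 to 85582473, minus strand), had 155, 139 and 176 CPM in knockouts A, B and C, against 196, 212 and 194 CPM in controls A, B and C. The groups did not overlap, and the log2 change was -0.35 ± 0.11 (adjusted p = 0.473, and 0.0602 with the block). Adgra2, the receptor GPR124 through which endothelium reads this ligand, had 4.22, 6.40 and 6.96 CPM in the knockouts and 3.93, 5.83 and 4.38 CPM in the controls (0.32 ± 0.26).

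Genes of PDGF, TGF-beta and Notch signalling, through which endothelium recruits mural cells, were lower in 10 of 19 members (median -0.03). Pdgfb had 4.43, 7.70 and 5.19 CPM in knockouts A, B and C, against 5.33, 10.5 and 11.7 CPM in controls A, B and C. Each knockout was below its letter's control, but knockout B was above control A (-0.66 ± 0.29, adjusted p = 0.708). Neurons also express Pdgfb, and its reads were not assigned to a cell type. Hey2, a Notch target of arteries, had 0.926, 1.48 and 1.14 CPM in the knockouts and 2.01, 1.86 and 2.24 CPM in the controls (-0.77 ± 0.36, adjusted p = 0.710).

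Vessel segments could be read in part. Of the arterial genes 3 of 4 tested were higher, with 0.32 ± 0.23 for the connexin Gja4 and -0.09 ± 0.14 for Efnb2, the ephrin ligand that neurons express too, and Gja5 had 0 reads in every library. Of the venous genes 4 of 5 tested were lower, with -0.33 ± 0.11 for the chemokine receptor Ackr1 and -0.20 ± 0.11 for the adhesion molecule Vcam1. Ackr1 overlaps Cadm3, a gene of neurons, on the same strand, so its counts are uncertain. Of the tip cell genes 5 of 10 were higher, with -0.37 ± 0.14 for the semaphorin receptor Plxnd1 and 0.54 ± 0.25 for the basement membrane protein nidogen 2, Nid2. Basement membrane genes were higher in 11 of 12 members (median 0.17). Col4a2, a collagen chain of that membrane, had 27.9, 36.1 and 33.8 CPM in knockouts A, B and C, against 26.0, 26.3 and 25.4 CPM in controls A, B and C (0.33 ± 0.13, adjusted p = 0.633). Its groups did not overlap, and fibroblasts express these genes too.

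Genes of these lists were named for their small p, so the choice itself favours groups that do not overlap. Over the whole lists, all knockouts lay above all controls for 2 of 18 other endothelial genes, 1 of 18 VEGF and angiopoietin genes, 0 of 16 Wnt genes, 1 of 19 PDGF, TGF-beta and Notch genes, 0 of 10 tip cell genes and 1 of 12 basement membrane genes, where this held for 5.89% of all tested genes. All knockouts lay below all controls for 1, 3, 1, 1, 2 and 0 genes of these lists in the same order, where this held for 6.28% of all tested genes. The other pathway lists were other mural, arterial, venous and hypoxia genes. In them all knockouts lay above for 1 of 10, 0 of 4, 0 of 5 and 1 of 13 genes. All knockouts lay below for 0, 0, 2 and 1 genes of those lists in the same order.

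**Figure D5:**
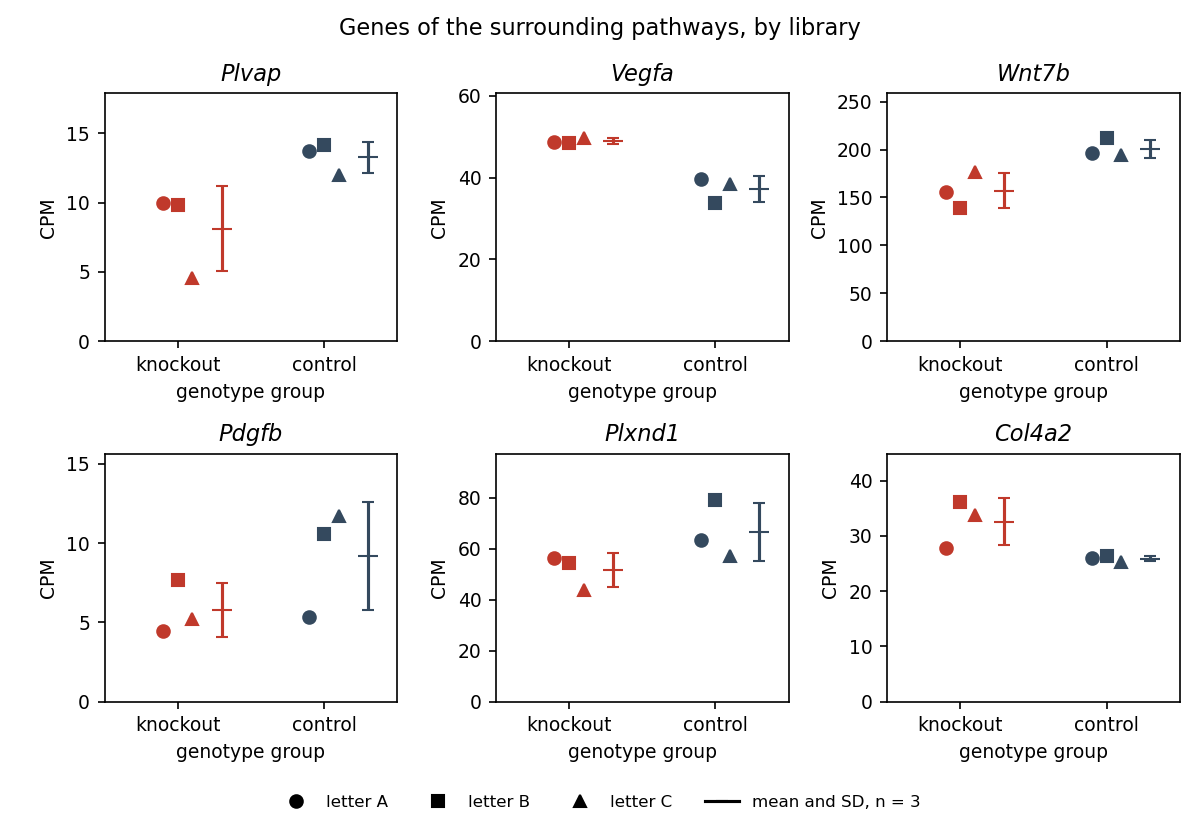
CPM of Plvap, Vegfa, Wnt7b, Pdgfb, Plxnd1 and Col4a2 in each library, with knockouts left of controls, symbols for the letters and the mean with SD at the side (n = 3). These genes were picked for a small p, and their groups do not overlap except for Pdgfb, of which knockout B at 7.70 CPM lies above control A at 5.33 CPM.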

How the data were processed

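Polyadenylated RNA of 6 cortical hemispheres was sequenced, per the labels, as strand-specific libraries. The authors deposited raw counts of reads per gene, 1 table per library, in the layout of STAR's gene counts. The submitters' processing notes name STAR 2.5.4 and, as builds, GRCm38 and mm10, and the annotation and read filters were not given in the sources used here. The counts on the strand of the first read were used, which held 17.5 to 19.2 times as many as the other strand. The deposited count of multi-mapping reads was 0 in every table, so genes with near-identical copies are undercounted (Ly6c1, Ly6a, Abcb1a and Acta2 among the members). The 4 lines of unassigned reads entered neither library sizes nor tests. GENCODE M21 on GRCm38 gave symbols, coordinates and union exon lengths, and held 52403 of the 52550 identifiers.

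The test was that of edgeR 4.0.16 in R 4.3.3 (filterByExpr, TMM, robust quasi-likelihood F-test, two-sided, genotype only, all 6 libraries, no minimum fold). CPM use the scaled library sizes, the SE is the log2 change divided by the square root of F, and differences within a letter use log2 of CPM plus 0.5. Alternatives were other scalings and filters, DESeq2 1.42.0, both strands together, other memberships, and libraries left out. The fits were first tested on simulated counts. These held no letter effect and only changes larger than any tested member had, so changes of the members' size were not covered.

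The letters are shared by the genotypes. Across genes, deviations from the group means had same-letter correlations of 0.408 (A), 0.338 (B) and 0.216 (C), and of at most -0.0356 between different letters. Such deviations cancel out within a group, so positive same-letter values by themselves pull the others down. The check was repeated without the vessel, meningeal, macrophage and choroid plexus lists and without sex chromosomes. The same-letter values were then 0.337 (A), 0.236 (B) and 0.184 (C), and those between different letters were at most 0.0164. The labels give no meaning to the letters, which were taken as pairs from this check alone. Counts of any 2 libraries differed by more than sampling noise, with a chi-square of 3.98 per degree of freedom or more. The design text calls the samples biological replicates. Every knockout and no control carries Cre, so effects of Cre and of the deletion cannot be told apart.

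Members and lists were chosen with earlier results of these data known. Named are all members, Slc7a5, and from each pathway list the genes called with or without the block or otherwise the 2 with the smallest p. Marker lists are given by their sums or by counts of their genes on either side. The log2 change of Emx1 itself was -1.05 ± 0.22 (edgeR adjusted p = 0.179), with adjusted p-values of 1.75e-04 with the block, 0.00916 with DESeq2, 0.0121 with DESeq2 and the block, and 1.03e-05 without a filter.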

Additional observations from a re-analysis of the deposited data

Results flagged for a closer look

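Reads on the strand opposite to Notch3, which enter no value above except the fit on both strands together, averaged 3.55 CPM in the knockouts, with 3.60, 3.71 and 3.32 CPM in knockouts A, B and C against 2.31, 2.60 and 2.85 CPM in controls A, B and C. They drew attention because every knockout lay above every control in data outside the main measurement, a pattern that 5.89% of tested genes had on the strand used. They made up 18.7% of the reads over both strands of this gene, and the annotation places the antisense transcript Gm17276 there. With both strands together the log2 change of Notch3 was 0.20, against 0.14 on the strand used. On the strand opposite to Esam the direction was reversed, with every knockout below every control. Reads there were 2.57, 3.80 and 2.29 CPM in the knockouts and 6.44, 5.58 and 6.52 CPM in the controls. They made up 12.5% of the Esam reads over both strands. With both strands together the log2 change of Esam was -0.16, against -0.03 on the strand used. The differences on the opposite strands were not tested.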

How the results depend on the processing

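Of 664 member values under 19 alternative fits, 0 passed the threshold and 49 took the other direction, in 16 of 35 members. DESeq2 without the block gave no adjusted p to the members listed above for it, from Tie1 to Acta2, so those values could not pass. The lowest adjusted p of a member was 0.161, in the fit with the replicate block. Signs turned without leaving out a library only for values near 0. Slco1a4 had 0.0052 with the replicate block, 0.020 with DESeq2 and the block, 0.015 with upper-quartile factors and 0.016 with total counts. Esam had 0.0079 and Foxq1 0.0041 with upper-quartile factors, and 0.010 and 0.0084 with total counts. With 1 library or 1 letter left out, log2 changes ranged from -0.19 to 0.52 for Abcb1a, -0.28 to 0.14 for Abcg2, -0.056 to 0.59 for Acta2, -0.10 to 0.42 for Cldn5, -0.14 to 0.33 for Egfl7, -0.47 to 0.16 for Emcn, -0.18 to 0.10 for Esam, -0.23 to 0.51 for Foxf2, -0.18 to 0.072 for Foxq1, -0.13 to 0.45 for Itm2a, -0.35 to 0.084 for Ly6c1, -0.24 to 0.0064 for Ramp2, -0.34 to 0.39 for Slco1a4, -0.025 to 0.32 for Sox17, -0.050 to 0.63 for Tek and -0.20 to 0.51 for Vtn. Members whose sign held ranged widely too, from 0.14 to 1.22 for Ly6a, 0.10 to 0.73 for Vwf, 0.031 to 0.31 for Pecam1, 0.029 to 0.21 for Nos3, 0.12 to 0.49 for Fli1, 0.14 to 0.37 for Flt1, 0.077 to 0.27 for Mfsd2a and -3.25 to -0.094 for Sox18. The endothelial median ran from 0.031 to 0.27 and the mural median from 0.21 to 0.38 over all alternatives. Genes past the threshold over the whole table numbered 5, against 126 with the replicate block, 27 with DESeq2, 23 with DESeq2 and the block, 71 without a filter, 9 with upper-quartile factors, 10 with total counts, 2 without robust estimation, and 0 to 10 with libraries left out. Slc7a5 passed without a filter (-1.25, adjusted p = 5.02e-11) and with DESeq2 (-1.25). The causes were not tested. Members under about 3 CPM rested on few reads, with SEs of up to 1.10.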
